A study of Mus musculus with 127 samples.

Results

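Single neutrophil precursors of the classes Gran-1 and Gran-2 were set against cells of the class Myelo-2 within 1 sorted gate of mouse bone marrow, called CD11b+ in the labels. The class names are the authors' own, read from their deposited groups table, and every cell of the gate that carried 1 of these 3 names was taken. That gave 8 Gran cells (4 of class Gran-2 and 4 of class Gran-1) and 14 Myelo-2 cells, 22 of the 127 cells of the series. The other 18 of the 40 cells in the gate bore other class names. All cells came from wild-type C57BL/6 mice with no treatment named. Marrow from the hindlimbs was enriched on CD117 beads, sorted with antibodies, captured singly on a Fluidigm C1 chip and turned into cDNA with a SMARTer kit, and the labels call the sorted population GMP-P. No age and no animal was named, so the 8 Gran cells and the 14 Myelo-2 cells each count as 1 sample. No test was therefore possible, no p-value is given, and ranges and SDs below describe the spread over cells. The sources used here do not say how the class names were assigned. The same genes may have set the classes, so the differences between them are descriptions.

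Neutrophils make their granules in sequence. The earliest precursors fill primary (azurophil) granules with myeloperoxidase and serine proteases, the next stage fills specific granules with lactoferrin and cathelicidin, and later stages add gelatinase granules and the receptors of the mature cell. The genes are switched on and off in the same order, so that which proteins meet in a granule follows from when they are made. C/EBP factors, PU.1 and Gfi1 are known regulators of this programme.

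Values are TPM, a gene's share of a cell's transcripts corrected for transcript length and scaled to the same total in every cell. The Gran cells were primary granule cells by this measure, and the Myelo-2 cells were specific granule cells. Genes of a list of 19 primary granule genes took a median of 10.6% of a Gran cell's TPM (range 6.72 to 16.7) and 0.328% of a Myelo-2 cell's TPM (0.108 to 0.678). Genes of a list of 26 specific granule genes took 0.739% (0.494 to 2.21) in Gran cells and 27.2% (18.8 to 33.2) in Myelo-2 cells. The ranges of the classes did not overlap for either list. The class names stood on the side of the granule sequence that the markers Elane, Mpo, Prtn3, Camp and Ltf give. The same genes may have set the classes, so this is no check of the names.

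**Figure D1:**
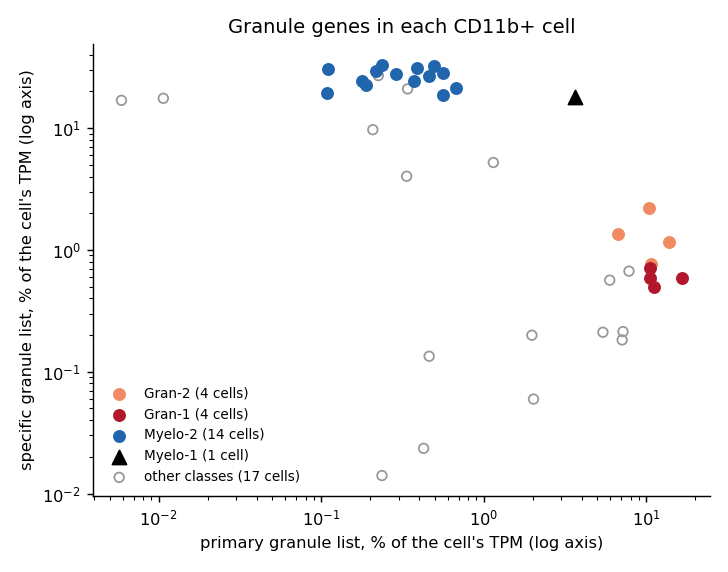
Each point is 1 of the 40 CD11b+ cells, placed by the percent of its TPM in the primary granule list (x, log axis) and in the specific granule list (y, log axis); colours give the class. The 8 Gran cells lie between 6.72% and 16.7% on the x axis, the 14 Myelo-2 cells between 18.8% and 33.2% on the y axis, and the single Myelo-1 cell holds 3.65% and 18.1%.

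The sequences in front of 4 of these genes are shown because both programmes are read here at the transcript level. Elane and Prtn3 are serine protease genes with no coding gene between them on chromosome 10. Ngp and Ltf, both on chromosome 9, had the lowest ratios of the specific granule list. Each run is the 250 bases before the start site in RefSeq (build GRCm38.p6), 5′ to 3′ on the gene's strand, which is the plus strand for all 4, and other annotations may place the start elsewhere. The windows are chr10:79886062-79886311 for Elane, chr10:79879417-79879666 for Prtn3, chr9:110419558-110419807 for Ngp and chr9:111019042-111019291 for Ltf. Capitals mark letter matches on either strand to GAGGAA, a core of PU.1 sites, and to TTNNGNAA, a core of C/EBP sites.
Elane: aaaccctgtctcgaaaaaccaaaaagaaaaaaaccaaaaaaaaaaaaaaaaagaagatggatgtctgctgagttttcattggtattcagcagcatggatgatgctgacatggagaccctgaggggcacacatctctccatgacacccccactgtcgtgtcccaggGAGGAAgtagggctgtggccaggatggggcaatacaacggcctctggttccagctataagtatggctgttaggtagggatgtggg
Prtn3: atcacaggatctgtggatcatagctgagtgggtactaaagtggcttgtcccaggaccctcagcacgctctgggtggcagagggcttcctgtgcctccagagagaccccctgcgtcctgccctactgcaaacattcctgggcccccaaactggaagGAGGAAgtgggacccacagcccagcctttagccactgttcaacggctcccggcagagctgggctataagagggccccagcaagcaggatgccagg
Ngp: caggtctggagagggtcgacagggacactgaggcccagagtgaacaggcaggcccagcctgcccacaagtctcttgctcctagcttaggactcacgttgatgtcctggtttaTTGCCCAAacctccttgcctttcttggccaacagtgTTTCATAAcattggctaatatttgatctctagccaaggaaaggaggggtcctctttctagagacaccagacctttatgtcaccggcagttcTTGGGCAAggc
Ltf: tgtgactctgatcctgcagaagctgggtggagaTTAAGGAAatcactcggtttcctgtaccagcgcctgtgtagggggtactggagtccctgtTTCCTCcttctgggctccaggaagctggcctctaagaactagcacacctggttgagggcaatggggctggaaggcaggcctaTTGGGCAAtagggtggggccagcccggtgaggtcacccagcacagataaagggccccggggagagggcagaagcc
The GAGGAA letters start at -85 before the start site in Elane and at -95 in Prtn3. In Ngp the TTNNGNAA letters stand at -138, -102 and -11, and in Ltf at -217 and -75, with GAGGAA on the other strand at -157. Among 4 primary granule genes (Elane, Mpo, Prtn3 and Ctsg) GAGGAA was found in all 4 windows and TTNNGNAA in 0. Among 4 specific granule genes (Camp, Ngp, Ltf and Lcn2), TTNNGNAA was found in 3 and GAGGAA in 2 (Ltf and Lcn2), and Camp had 0 of either. TGTGGT, a core of Runx sites, was found in Ctsg alone of these 8. Of 32841 RefSeq promoters of this length, 36.9% hold TTNNGNAA, 23.3% hold GAGGAA and 14.05% hold TGTGGT. Such matches are frequent, and they describe letters, not binding.

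Primary granule genes were high in every Gran cell. Elane, neutrophil elastase, stood at 35341, 43409, 23368 and 32239 TPM in the 4 Gran-2 cells and at 41871, 66355, 37162 and 38111 TPM in the 4 Gran-1 cells, against a lowest value of 1.69, a median of 11.9 and a highest value of 1390 TPM in Myelo-2 cells. The lowest Gran cell lay above the highest Myelo-2 cell. The fold between the mean TPM values, each with 1 TPM added, was 170 for Elane (log2 7.41; mean log2(TPM + 1) 15.2 ± 0.42 in Gran and 4.91 ± 2.96 in Myelo-2 cells, SD over 8 and 14 cells). Mpo, the myeloperoxidase that makes hypochlorous acid, ranged between 13010 and 54449 TPM in Gran cells and between 1.61 and 611 TPM in Myelo-2 cells (log2 ratio 9.24). Prtn3, proteinase 3, ranged between 5343 and 16057 TPM in Gran cells and between 0 and 435 TPM in Myelo-2 cells, of which 8 of 14 reached 1 TPM (57.1%, exact 95% interval 28.9 to 82.3, for counting error only). Ctsg, cathepsin G, was at 1064 to 6575 TPM in Gran cells and reached 1 TPM in 4 of 14 Myelo-2 cells (highest 110 TPM). Each of these 4 genes separated the classes without overlap, with every Gran cell higher, as was the case for 0.973% of all measured genes.

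A gene was counted as higher or lower when its mean was 10 TPM or more in either class and both the ratio of means and the mean log2(TPM + 1) differed at least 2-fold in the same direction. By this rule 2917 of 6679 measured genes (43.7%) were higher in Gran cells and 259 (3.88%) were lower. A gene was measured if 25% of the cells of 1 class, or more, had it at 1 TPM or above. The median log2 ratio of all measured genes was 1.26, so a moderate positive ratio was the usual case here and not particular to a list. Of the primary granule list, 18 of 19 genes were in the table and 17 were measured. Of those 17, 15 were higher and 0 lower, with a median log2 ratio of 4.85. Nkg7, a membrane protein of cytotoxic granules, averaged 5259 TPM in Gran and 47.9 TPM in Myelo-2 cells. Srgn, the proteoglycan core that packs granule proteases, averaged 8227 and 148 TPM, and Plac8 7514 and 260 TPM. Cst7, an inhibitor of cathepsins, averaged 1012 TPM in Gran and 31.3 TPM in Myelo-2 cells. Ms4a3, a membrane protein of early granulocyte precursors, had more left in Myelo-2 cells, with 4485 TPM in Gran and 625.2 TPM in Myelo-2 cells. The 2 measured members not called were Ctsc, the protease that activates the granule serine proteases, at 7.40 and 0.0114 TPM, and Serpinb1a, an inhibitor of them. Serpinb1a was at like levels, 1952 TPM in Gran and 1817 TPM in Myelo-2 cells.

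**Figure D2:**
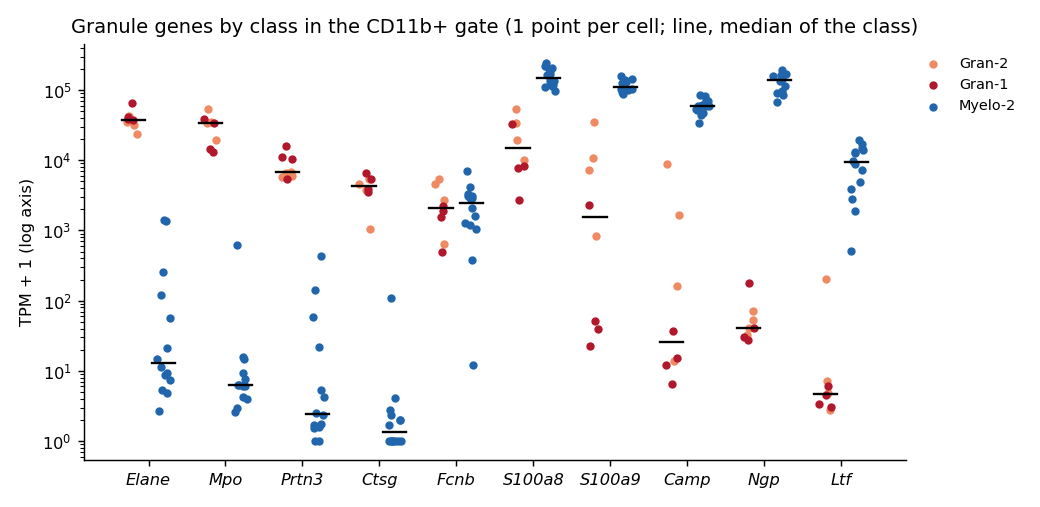
TPM + 1 (log axis) of 10 granule genes in each of the 22 cells, with Gran cells on the left of each pair, Myelo-2 cells on the right and a line at the median of the class. Elane, Mpo, Prtn3 and Ctsg lie higher in every Gran cell, S100a8, S100a9, Camp, Ngp and Ltf lie higher in every Myelo-2 cell, and Fcnb overlaps.

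The specific granule list showed the reverse. Camp, the cathelicidin precursor, stood at 12.7, 163, 1648 and 8742 TPM in the 4 Gran-2 cells and at 5.41, 14.4, 11.2 and 35.5 TPM in the 4 Gran-1 cells, against 33431 to 83853 TPM (median 59707) in Myelo-2 cells. Its ratio of means (log2 -5.49) rests on 1 Gran cell, cell 27, which gave 82.2% of the Gran sum. Without cell 27 the Gran mean was 270 TPM instead of 1329 TPM. Ngp, neutrophilic granule protein, ranged between 26.1 and 180 TPM in Gran cells and between 67917 and 194960 TPM in Myelo-2 cells (log2 ratio -11.13). Ltf, lactoferrin, was at 1.76 to 199 TPM in Gran cells and at 515 to 19391 TPM in Myelo-2 cells. Again 1 Gran cell (cell 27) gave 88.96% of the Ltf sum. Lcn2, the siderophore binder lipocalin 2, was at 1.74 to 431 TPM in Gran cells and at 8107 to 24084 TPM in Myelo-2 cells. In none of these 4 genes did the classes overlap, and 0.15% of all measured genes were lower in every Gran cell.

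Of 26 specific granule genes, 21 were measured. Of those, 14 were lower in Gran cells and 2 higher, with a median log2 ratio of -4.82, while 3.88% of all measured genes were lower. Lyz2, lysozyme, averaged 250 TPM in Gran and 14371 TPM in Myelo-2 cells, and Chil3, a chitinase-like secreted protein, 1032 and 18438 TPM. Cybb, the membrane subunit of the NADPH oxidase, averaged 152 TPM in Gran and 1224 TPM in Myelo-2 cells. Cd177, a neutrophil surface glycoprotein, averaged 7.39 and 1065 TPM, and cell 3 gave 97.6% of that Gran sum. In these TPM values the list did not move as a whole. Fcnb, ficolin B of the lectin complement pathway, averaged 2458 TPM in Gran and 2433 TPM in Myelo-2 cells (log2 ratio 0.01), and its ranges overlapped widely (493.1 to 5451 TPM in Gran and 11.03 to 7104 TPM in Myelo-2 cells). Hp, haptoglobin, averaged 1035 and 1168 TPM, and Tcn2, a vitamin B12 carrier, 165 and 177 TPM. Slpi, an inhibitor of elastase, was counted higher with 306 TPM in Gran and 118 TPM in Myelo-2 cells. Its log2 ratio of 1.36 became 0.28 once cells were scaled to genes outside the granule and S100 lists. On that scale 16 genes of the specific granule list were lower and 0 higher.

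Traces of the other granule set were present in both classes at 1 TPM or more. All 8 Gran cells held Camp and Ltf, and all 14 Myelo-2 cells held Elane and Mpo. Such low levels are not read as expression. The Eryth cell of the same gate, in which no neutrophil granule gene would be looked for, held Elane at 11.3, Mpo at 24.7, Ngp at 38.7 and Camp at 19.1 TPM, with 3626 genes detected. The medians were of a like size: 39.5 TPM of Ngp and 24.9 TPM of Camp in Gran cells, and 11.9 TPM of Elane and 5.22 TPM of Mpo in Myelo-2 cells. At 1000 TPM or more, Elane with Camp was found in 2 of 8 Gran cells (25%, exact 95% interval 3.19 to 65.1) and in 2 of 14 Myelo-2 cells (14.3%, 1.78 to 42.8). The 2 Gran cells were Gran-2 cells 25 and 27. The 2 Myelo-2 cells were cell 7, with 1390 TPM of Elane and the class's highest Ctsg (110 TPM) and Fcnb (7104 TPM), and cell 20, with 1366 TPM of Elane, the class's highest Mpo (611 TPM) and Prtn3 (435 TPM) and its lowest Ltf (515 TPM). Both kept Camp at 46682 TPM or more. No doublet caller was run on these few captured cells, and the part of doublets in such cells was not tested.

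S100a8 and S100a9, which encode the 2 chains of calprotectin and lie next to each other on chromosome 3, differed between the classes and from each other. S100a8 stood at 2751 to 54145 TPM (median 14768) in Gran cells and at 95691 to 243934 TPM (median 150382) in Myelo-2 cells. S100a9 stood at 821, 7322, 35455 and 10752 TPM in the 4 Gran-2 cells and at 39.03, 2318, 21.6 and 50.9 TPM in the 4 Gran-1 cells, against 87248 to 156819 TPM in Myelo-2 cells. S100a8 was thus at 2751 TPM or more in all 8 Gran cells, while S100a9 was under 100 TPM in 3 of the 4 Gran-1 cells. Of the 11 measured members of the S100 and early myeloid list, 6 were lower and 2 higher in Gran cells, with a median log2 ratio of -1.29. The higher ones were Lgals1, galectin 1 (189 and 5.49 TPM), and Ifitm2, an antiviral membrane protein (1271 and 395 TPM). S100a11 averaged 2431 TPM in Gran and 2146 TPM in Myelo-2 cells, and Alox5ap, which presents arachidonate for leukotriene synthesis, 1174 and 1305 TPM.

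**Figure D3:**
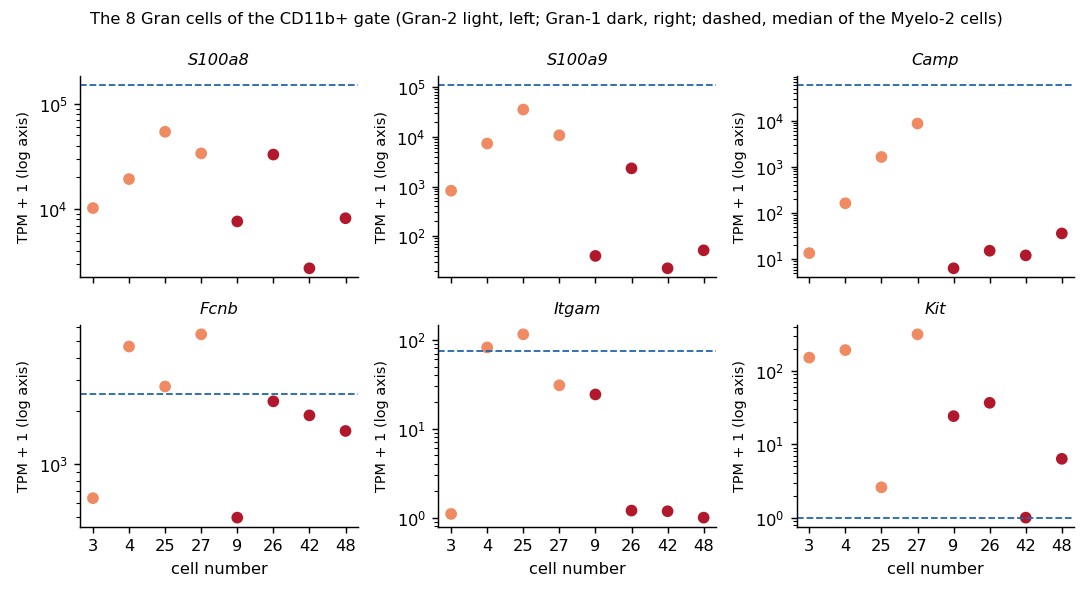
TPM + 1 (log axis) of 6 genes in each of the 8 Gran cells, with the 4 Gran-2 cells on the left, the 4 Gran-1 cells on the right and a dashed line at the Myelo-2 median. Camp reaches 1648 and 8742 TPM in Gran-2 cells 25 and 27, and S100a9 is under 100 TPM in Gran-1 cells 9, 42 and 48.

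The values of single Gran cells varied for several of these genes. Between Gran-2 and Gran-1 cells, 165 of 8458 measured genes (1.95%) were higher in every Gran-2 cell than in every Gran-1 cell, and 71 (0.839%) were lower in every Gran-2 cell. Itgb2, the beta chain that pairs with CD11b, averaged 345 TPM in Gran-2 and 0.95 TPM in Gran-1 cells, and Ets1, a transcription factor, 367 and 0.0475 TPM. Both were higher in every Gran-2 cell. Cdt1, which licenses replication origins, averaged 1.36 TPM in Gran-2 and 64.3 TPM in Gran-1 cells, and was lower in every Gran-2 cell. These 3 were picked after their values were seen, and with 4 cells on each side nothing is read from such a separation. The primary granule shares overlapped (6.72% to 13.7% in Gran-2 and 10.6% to 16.7% in Gran-1 cells). The specific granule shares did not overlap in this gate (0.763% to 2.21% in Gran-2 and 0.494% to 0.714% in Gran-1 cells). Nothing is read from that gap either. The 2 Gran-2 cells of the Ly6g low gate, at 0.591% and 0.699%, lay within the Gran-1 range of the CD11b+ gate.

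The gene of the sorting antigen, Itgam, which encodes CD11b, was at 0.1, 80.9, 114 and 29.7 TPM in the 4 Gran-2 cells and at 23.3, 0.2, 0.18 and 0 TPM in the 4 Gran-1 cells, against 7.55 to 306 TPM (median 73.8) in Myelo-2 cells. It reached 1 TPM in 4 of 8 Gran cells and in all 14 Myelo-2 cells. The other 4 Gran cells, sorted as CD11b+, stood at 0.2 TPM or less. Ly6g, a surface protein of later granulocytes, was listed at 0 in all 8 Gran cells and was above 1 TPM in 4 of 14 Myelo-2 cells (mean 96.5 TPM). Kit, the receptor used for enrichment, was at 151, 191, 1.59 and 314 TPM in the 4 Gran-2 cells and at 23.2, 35.7, 0 and 5.33 TPM in the 4 Gran-1 cells. In Myelo-2 cells Kit reached 1 TPM in 2 of 14, with a highest value of 15.4 TPM.

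Of 39 granulocyte regulators 26 were measured, 5 were higher and 3 lower in Gran cells, and their median log2 ratio of 0.27 was below that of all measured genes. Cebpe, the C/EBP factor needed for specific granules, averaged 25.3 TPM in Gran and 93.2 TPM in Myelo-2 cells (log2 ratio -1.84), with overlapping ranges. Gfi1, a repressor needed for neutrophil formation, averaged 14.8 and 4.58 TPM, and 4 of 8 Gran cells and 1 of 14 Myelo-2 cells reached 1 TPM. That gene reversed to a log2 ratio of -0.042 with Gran-1 cells alone. Ikzf1 (29.8 and 86.2 TPM) and Ets1 (184 and 428 TPM) were lower in the pooled Gran cells. For Ets1 the Gran-1 cells brought the pooled mean down. Its Gran-2 mean, given above, lay much nearer to the Myelo-2 mean. Myb (205 and 24.7 TPM), Lmo2 (36.9 and 6.09 TPM), Fos (918 and 248 TPM) and the clock gene Per3 (155 and 14.9 TPM) were higher. Cebpa was above 1 TPM in 2 of 8 Gran cells and listed at 0 in all 14 Myelo-2 cells, and Spi1, which encodes PU.1, averaged 3.45 and 6.94 TPM. Irf8, a regulator of the monocyte branch, was listed at 0 in all 22 cells. A 0 in these libraries can be a failure of detection, since Polr2a, a subunit of RNA polymerase II, was at exactly 0 in 1 of 8 Gran and 8 of 14 Myelo-2 cells. No absence is therefore read from a 0.

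Of 22 progenitor genes 7 were at 0 in all 22 cells and 6 were measured. Of the 6, 4 (Kit, Myb, Lmo2 and Npm1) were higher in Gran cells and 0 lower. Npm1, a nucleolar protein of ribosome assembly, carried most of the list, at 555 to 2902 TPM in Gran cells and 0 to 657 TPM in Myelo-2 cells. Of 12 measured growth factor receptors 5 were higher and 1 lower. The share higher, 41.7%, was near the 43.7% of all measured genes. Csf3r, the G-CSF receptor, averaged 89.2 TPM in Gran and 23.5 TPM in Myelo-2 cells, and Ifngr1, of the interferon gamma receptor, 510 and 75.96 TPM. Il1r2, the decoy receptor for interleukin 1, averaged 1.45 TPM in Gran and 180 TPM in Myelo-2 cells.

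Of 25 genes of later neutrophils 16 were measured, 8 of these were lower in Gran cells, 2 (Csf3r and Hdc) were higher and 6 were neither. The late neutrophil list median was -1.61 as a log2 ratio of means and 0 with medians of TPM. Ifitm6 was at 0 to 3.13 TPM in Gran cells and at 0 to 1561 TPM (median 472) in Myelo-2 cells. Pglyrp1, which binds bacterial peptidoglycan, averaged 1140 TPM in Gran and 3573 TPM in Myelo-2 cells. Fpr2, a formyl peptide receptor, stayed at or under 0.53 TPM in Gran cells, while 6 of 14 Myelo-2 cells reached 1 TPM and the highest had 928 TPM. Mmp9, gelatinase, and Il1b were not measured in either class. Of 21 measured genes of chemotaxis and adhesion, 6 were higher (28.6%) and 7 lower (33.3%), against 43.7% and 3.88% of all measured genes. C5ar1, the receptor for complement C5a, averaged 0.109 TPM in Gran and 97.6 TPM in Myelo-2 cells, and Itgb2l, an integrin beta chain close to Itgb2, 0.586 and 172 TPM. Itga4, the alpha 4 integrin chain, averaged 21.9 and 0.402 TPM, and Cd63, a tetraspanin of primary granules, 2287 and 732 TPM. Of the 8 NADPH oxidase genes all were measured, and Cybb was lower, Rap1a higher and the other 6 neither.

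Ribosomal protein genes, a list of 83 added after the values had been seen, took a median of 14.6% of TPM (11.2 to 20.5) in Gran cells and 2.41% (1.10 to 4.55) in Myelo-2 cells. Of 79 measured, 78 were higher and 0 lower (median log2 ratio 2.58). Rpl10 was at 1346 to 4593 TPM in Gran cells and at 0.59 to 726 TPM in Myelo-2 cells, and Rps12 at 970 to 5553 TPM and 0 to 559 TPM. Processed pseudogenes share sequence with these genes, and how such reads were divided is not given in the sources used here. Of 31 measured genes of ribosome assembly 22 were higher and 0 lower (median 3.37). Nop56, a core protein of the small nucleolar particles that methylate rRNA, averaged 232 TPM in Gran and 0.537 TPM in Myelo-2 cells, and Fbl, fibrillarin, 95.7 and 0.0686 TPM. Of 35 translation factors 24 were higher and 0 lower (median 1.67). Eef1g, an elongation factor subunit, was at 165 to 1270 TPM in Gran cells and above 1 TPM in 1 of 14 Myelo-2 cells (90.04 TPM).

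Genes of the endoplasmic reticulum, through which granule proteins pass, went the same way. Of 39 measured, 31 were higher in Gran cells and 0 lower, with a median log2 ratio of 2.26. Calr, calreticulin, a chaperone that binds newly made myeloperoxidase, was at 172 to 1368 TPM in Gran cells and 0 to 109 TPM in Myelo-2 cells, and Sdf2l1, a stress-induced partner of the chaperone BiP, was at 7.70 to 259 TPM in Gran cells and listed at 0 in all 14 Myelo-2 cells. Rpn2, of the complex that adds N-linked sugars, averaged 306 TPM in Gran and 14.1 TPM in Myelo-2 cells. Of 72 respiratory chain genes 50 were higher and 0 lower (median 1.40), among them Atp5g1 of ATP synthase (855 and 77.8 TPM) and Uqcr11 of complex III (730 and 96.9 TPM). Of 15 measured genes of glycolysis 9 were higher and 1 (Slc2a3, a glucose transporter) lower (median 1.06), and of 34 proteasome genes 16 were higher and 0 lower (median 0.76). The proteasome share of 47.1% was near the 43.7% of all measured genes.

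**Figure D4:**
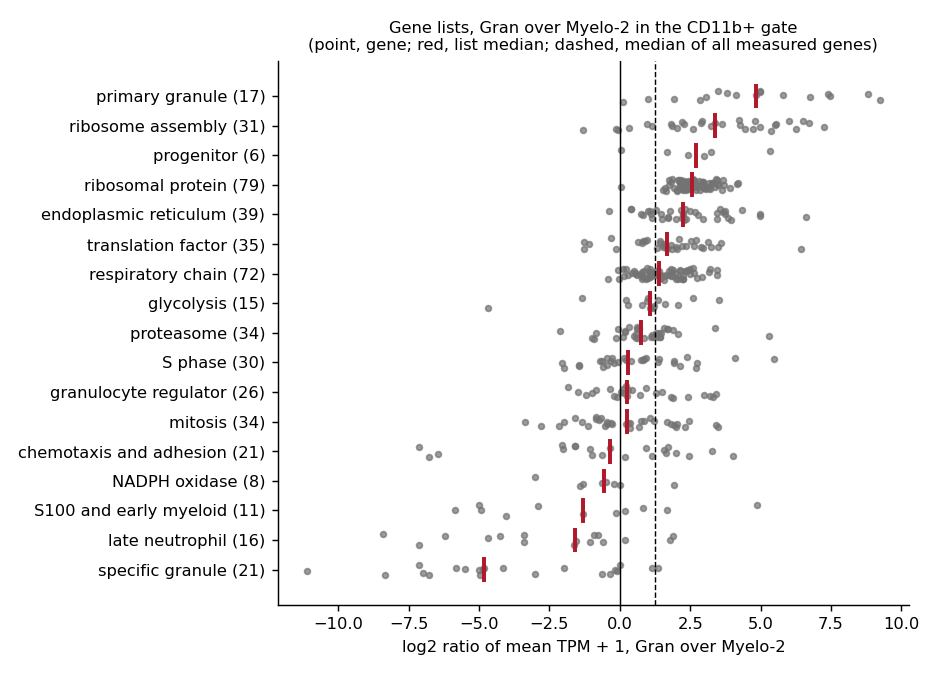
Log2 ratio of mean TPM + 1, Gran over Myelo-2, for each measured member of 17 gene lists (number measured in brackets), with the list median in red and the median of all measured genes, 1.26, as a dashed line; genes listed at 0 in 1 class sit where the added 1 TPM puts them. The primary granule list has its median at 4.85 and the specific granule list at -4.82, and the S phase (0.31) and mitosis (0.25) medians lie left of the dashed line.

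Cell cycle lists stayed under the median of all genes. The share of genes higher was 33.3% for S phase and 26.5% for mitosis, against 43.7% of all measured genes. Of 30 S phase genes 10 were higher in Gran cells and 0 lower, but single cells carried several of them. Cell 4 gave over 50% of the Gran sum of Lig1, a replication ligase, and 56.6% of that of Mcm2, a subunit of the replicative helicase. The summed S phase level was 1691 to 11065 TPM (median 5045) in Gran cells and 7.56 to 8349 TPM (median 5671) in Myelo-2 cells, so the classes overlapped. Of 34 measured mitosis genes 9 were higher and 4 lower, and their sums overlapped as well (2208 to 6372 TPM in Gran and 686 to 7646 TPM in Myelo-2 cells). Of 21 measured immediate early genes, which respond to handling of cells, 6 were higher and 0 lower. That share higher, 28.6%, was also under the 43.7% of all measured genes. Ccl4, a chemokine, was above 1 TPM in 2 of 8 Gran cells and listed at 0 in all 14 Myelo-2 cells.

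The count of genes detected went with the class. It was 2989 to 4494 (median 4093.5) in Gran cells and 1475 to 2643 (median 2259) in Myelo-2 cells, without overlap. TPM keeps no read depth, so more RNA per cell and deeper or better libraries cannot be told apart. With the cells limited to those with 1500 to 4000 genes (4 Gran and 13 Myelo-2 cells) the primary granule list median was 3.87, the specific granule list median -4.88 and the ribosomal protein list median 2.71 (log2 ratios). This limit did not match the classes: the 4 Gran cells, 1 Gran-2 and 3 Gran-1, still had 2989 to 3912 genes and the 13 Myelo-2 cells 1620 to 2643. TPM also sums to a fixed total, and the granule and S100 lists together took 15.6% (12.01 to 21.7) of it in Gran cells and 55.6% (47.4 to 63.6) in Myelo-2 cells. Scaled to the genes outside those lists, the median of all measured genes fell to 0.44, with 2209 genes higher and 456 lower. On that scale the medians were 3.82 for primary granule, -5.41 for specific granule, 2.64 for ribosome assembly, 1.65 for ribosomal protein and 1.37 for endoplasmic reticulum genes. They were 0.77 for translation factors (15 of 35 higher), 0.51 for respiratory chain (24 of 72) and 0.14 for glycolysis genes (3 of 15), and the respiratory chain median thus lay close to that of all genes. The medians of the S phase (-0.64), mitosis (-0.68), immediate early (-0.65), granulocyte regulator (-0.52), growth factor receptor (-0.12) and proteasome (-0.069) lists turned negative there.

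Complete separation of the classes was rare. Of 6679 measured genes, 65 (0.973%) were higher in every Gran cell than in every Myelo-2 cell, and 10 (0.15%) were lower in every Gran cell. Of the 65, 36 encode ribosomal proteins and 9 are on the primary granule list. The 10 were Camp, Chil3, Itgb2l, Lcn2, Ltf, Lyz1, Lyz2, Ngp, S100a8 and S100a9. Lists share members, so their counts are not independent. Calr, among the 9, is also on the endoplasmic reticulum list, and Itgb2l is on the specific granule and the chemotaxis and adhesion lists. Lyz1 and Lyz2 are near-identical copies whose reads can be split between them. By ratio of means, the highest genes besides Mpo and Ctsg included Hsd17b12, Rbks, Vkorc1, Acot7 and Cct3. Acot7, an acyl-CoA thioesterase, was at 3.50 to 716 TPM in Gran cells and at most 0.4 TPM in Myelo-2 cells. Cct3, a subunit of the cytosolic chaperonin, averaged 211 TPM in Gran and 0.114 TPM in Myelo-2 cells, and 7 of 8 Gran cells and 0 of 14 Myelo-2 cells reached 1 TPM (upper 95% limit 23.2%). Dmkn, dermokine, was at 39.6 to 876 TPM in all 8 Gran cells and listed at 0 in all 14 Myelo-2 cells. The lowest genes besides Ngp and Ltf included Ifitm6, Fpr2, Pirb, Cd177 and Tmem154. Pirb, an inhibitory receptor of myeloid cells, was at or under 0.24 TPM in Gran cells and above 1 TPM in 10 of 14 Myelo-2 cells.

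Few markers of other cell types were measured, apart from the monocyte list. Of 20 monocyte genes 9 were measured, and 5 were higher (55.6%, against 43.7% of all measured genes) and 2 lower in Gran cells. The 5 were Ly6c2, F13a1, Tifab, Clec12a and Cd68. The summed list was 4187 to 14262 TPM in Gran and 601 to 3390 TPM in Myelo-2 cells, and most of it was Ly6c2, a surface antigen that granulocyte precursors also carry (mean 7695 and 1028 TPM). F13a1, a coagulation factor subunit of monocytes, was at 0.33 to 267 TPM in Gran cells and at most 0.16 TPM in Myelo-2 cells. The monocyte markers Irf8, Ccr2 and Fn1 were listed at 0 in all 22 cells, and Csf1r averaged 0.0338 and 0 TPM. No absence is read from these values. The lists for lymphocytes (B cell, T and NK cell), for eosinophils, basophils and mast cells, for dendritic cells and macrophages and for the erythroid and megakaryocyte lines had at most 3 measured members each. The basophil and mast cell list summed to 0 to 1073 TPM in Gran and 0 to 518 TPM in Myelo-2 cells, most of it Hdc, which neutrophil precursors also express. Of its 3 measured members 2 were higher in Gran cells. Mcpt8, also on that list, was at 103 and 286 TPM in Gran-2 cells 3 and 4. Cd79b, the only measured B cell gene, was higher in Gran cells. It was at 66.9, 65.1, 52.7 and 21.6 TPM in cells 9, 48, 3 and 4, and listed at 0 in all 14 Myelo-2 cells. Of 11 macrophage genes 2 (Vcam1 and Slc40a1) were measured, and both were higher in Gran cells. That list summed to 0.37 to 1439 TPM (median 457) in Gran and 0 to 701 TPM (median 4.37) in Myelo-2 cells. Car2, an erythroid gene, was above 1 TPM in 2 of 8 Gran cells, with 94.7% of the sum in cell 27. The part of these genes in the class differences was not tested.

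The same classes were present in the Ly6g low gate, whose cells the selection had not used. It held 2 Gran-2 cells, 0 Gran-1 cells and 31 Myelo-2 cells. There 43.1% of 6676 measured genes were higher and 7.29% lower in Gran-2 cells, with a median log2 ratio of 0.95. The 2 Gran-2 cells had 46798 and 45446 TPM of Elane and 12929 and 28675 TPM of Mpo, within or close to the CD11b+ Gran range, and Camp at 46.9 and 46.3 TPM. Neither had Camp near the 1648 and 8742 TPM of the CD11b+ cells 25 and 27. Their S100a9 was 10516 and 10044 TPM, like that of the CD11b+ Gran-2 cells. Myelo-2 cells of that gate had a median of 0.4 TPM of Elane, but their highest had 15314 TPM. The list medians were 4.08 for primary granule, -5.49 for specific granule and 2.32 for ribosomal protein genes. Of 115 named genes past the threshold in CD11b+ cells, 99 had the same sign there and 16 did not, among them the S phase genes Pole, Mcm2, Lig1, Hells and Ung, the assembly factors Nob1 and Tsr1, and Trem1, a receptor of mature neutrophils. A positive ratio was the usual case in that gate as well, and many named genes were picked for extreme ratios. The share of equal signs over all genes past the threshold was not computed, so the 99 are not read as a repeat. Genes detected also differed there, with 4063 and 5058 in the Gran-2 cells and 1370 to 4503 (median 2282) in the Myelo-2 cells. What else differed between the gates is not given in the sources used here.

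**Figure D5:**
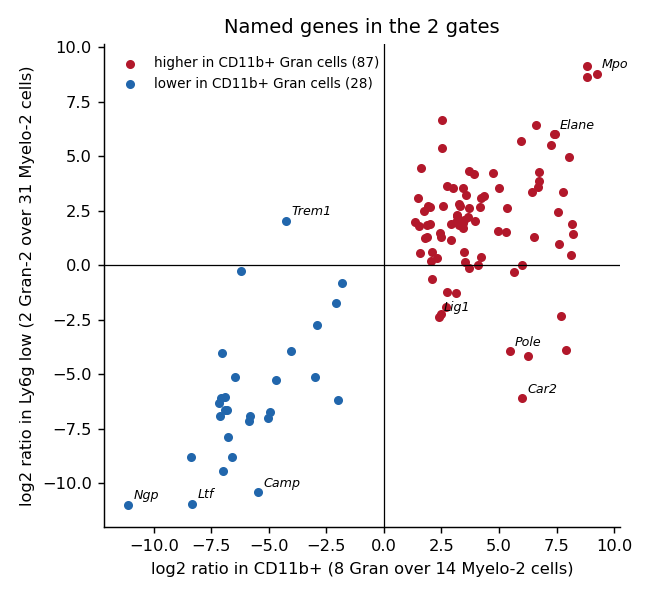
Log2 ratio of mean TPM + 1 of Gran over Myelo-2 cells for the 115 named genes past the threshold in CD11b+, in the CD11b+ gate (x) and in the Ly6g low gate (y); genes listed at 0 in a class are placed by the added 1 TPM. In 99 of 115 genes both ratios have the same sign, and Ngp, Ltf and Camp lie lowest on the y axis. The median ratio of all measured genes was positive in both gates (1.26 and 0.95).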

How the data were processed

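The authors deposited 1 table of log2(TPM + 1) values for 23946 genes in 127 cells, as read from the values, since undoing the log gives 999633 to 1.00538e+06 TPM per cell. The build mm9 and the tools Bowtie2 and RSEM are named in the submitters' processing notes (versions not given in the sources used here). Sequencing was paired-end at 150 bp with 96 cells in a library, per the labels. Of the values in the 22 cells, 85.4% are exactly 0, TPM keeps no depth, and all deposited cells were used without a doublet caller. The highest correlation between 2 of the 22 cells was 0.690.

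Values were turned back to TPM in Python 3.11.15 (numpy 2.4.6, pandas 2.3.3, scipy 1.17.1). Ratios are log2 of (mean TPM + 1), Gran over Myelo-2, and understate differences of low genes. Only the step that gives ratios and calls was run on simulated data, made from resampled Myelo-2 cells with planted changes. It returned the planted ratios, which follows from the arithmetic. The lists, scaling, overlap counts and promoter matches were not tested in this way. The members, the 27 gene lists and the naming rule were chosen with earlier results of these data known. The rule named the granule, S100 and regulator genes of the text, the 12 highest and 12 lowest ratios past the threshold (leaving out predicted, ribosomal, small RNA and mitochondrial genes) and up to 5 members per list. Other list members were picked after their values were seen. Intervals are exact (Clopper-Pearson) at 95%. Other settings tried were the pseudocount, filter, averaging and scaling, each Gran class alone, genes detected, each cell left out and the Ly6g low gate.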

Additional observations from a re-analysis of the deposited data

Results flagged for a closer look

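Among 27 measures examined in the Gran cells for a single cell far from the others, 2 were found. Chance would give about 1 in 20 for independent cells of 1 class and unrelated measures. Here 2 classes were pooled and the measures share genes, so that rate is a rough guide and no test. Ctsg was low in Gran-2 cell 25, at 10.06 as log2(TPM + 1), the lowest of the 8 Gran cells. Ltf was high in Gran-2 cell 27, at 7.64 on the same scale, the highest of the 8. The same 2 cells had the highest Camp of the Gran cells.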

How the results depend on the processing

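The count of genes higher in Gran cells, 2917, stayed within 1.5 times of that under every alternative run. The count of lower genes, 259, became 151 with genes measured in 50% of the cells, 124 with medians of TPM, 461 with Gran-1 cells alone, 467 with cells of 1500 to 4000 genes and 487 in the Ly6g low gate, and 456 with scaling to genes outside the granule and S100 lists, an alternative chosen after seeing the data. The calls were 91.8% higher as reported and 82.9% higher with that scaling. The primary granule median of 4.85 became 7.08 with mean log2 differences, 8.87 with medians of TPM, 3.82 with that scaling, 4.20 with Gran-1 cells alone, 3.87 with cells of 1500 to 4000 genes and 4.08 in Ly6g low. The specific granule median of -4.82 became -3.14 with a pseudocount of 10 TPM, -3.89 with Gran-2 cells alone and -5.49 in Ly6g low. Leaving out 1 cell at a time gave 2719 to 2967 genes higher, 231 to 280 lower, primary granule medians of 4.63 to 4.97 and specific granule medians of -4.93 to -4.21, the last without Myelo-2 cell 2. Neither granule list changed direction in any setting that gives it a value.

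The log2 ratios of some single genes changed sign. In Ly6g low these were Ccs (-3.90), Ndufaf2 (-2.33), Trem1 (2.04), Il4ra (-0.12), Tnfrsf1a (-1.29), Pole (-3.95), Hells (-1.23), Mcm2 (-1.93), Lig1 (-2.36), Nob1 (-4.16), Tsr1 (-0.0070), Ccl3 (-2.24), Cd68 (-0.62), Car2 (-6.10) and Mcpt8 (-0.30). With Gran-1 cells alone they were Gfi1 (-0.042), Cenpf (-1.42), Ldhb (-0.55), Pfkp (-0.63) and Car2 (-0.11), and with cells of 1500 to 4000 genes Gfi1 (-1.31), Nob1 (-0.031), Pfkp (-0.84), Cd68 (-3.27) and Car2 (-0.12). Cd68 was also at -0.27 with Gran-2 cells alone and between -0.96 and 5.55 with 1 cell left out at a time. The cause was not tested. Of 115 named genes past the threshold, 27 had over 50% of the sum of the class where they were higher in 1 cell. No paired analysis was possible because the cell numbers name cells and pair nothing, and no test was made. The planned scaling that leaves out the granule lists gives no values for them.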

Other observations

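One further CD11b+ cell carried both granule sets at high level. It was the single Myelo-1 cell (cell 40), with 2651 genes detected, 18533 TPM of Elane, 4091 TPM of Mpo, 93780 TPM of Camp, 58836 TPM of Ngp and 82694 TPM of S100a9, while Ltf stood at 760 TPM. Primary granule genes took 3.65% and specific granule genes 18.1% of its TPM. The Mono cells 10, 36 and 47 and the Multi-Lin cell had 9957 to 21721 TPM of Elane and 25310 to 34234 TPM of Mpo, with Camp between 11.7 and 172 TPM. HSCP-2 cell 21 had 9076 TPM of Elane, 31088.5 TPM of Mpo and 283 TPM of Camp. The other HSCP-2 cells of the gate had Elane at 39.6 TPM or less and Mpo at 4331 TPM or less. High Elane and Mpo with little Camp was therefore not limited to the Gran classes.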
